A study of Homo sapiens with 9 samples.

Results

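The 10 genes described here encode proteins of the smooth muscle contractile apparatus and its membrane. They were taken from the deposited table by gene symbol: ACTA2, TAGLN, CNN1, CNN2, MYH11, MYL9, CALD1, SMTN, TPM2 and CAV1, 10 of the 23610 genes in the table. All came from GIST-T1, a human cell line of a gastrointestinal stromal tumour (GIST), whose polyadenylated RNA was sequenced in 9 libraries. The cells carried an sgRNA against HAND1, a basic helix-loop-helix transcription factor, in 3 libraries. They carried an sgRNA against ETV1, an ETS family transcription factor of GIST, in 3 others, and a control sgRNA against Luciferase in the last 3. The labels call the sgRNAs a knockdown. No other agent, dose or time is named, and 1 cell line stands for the tumour type. Whether replicate libraries are separate cultures is not in the labels; the p-values below therefore rest on a spread between libraries that may be technical only.

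In smooth muscle, myosin pulls on thin filaments of actin and tropomyosin, and phosphorylation of the myosin regulatory light chain switches the motor on. Calponins, caldesmon, transgelin and smoothelin bind the actin filaments, while caveolin forms the membrane pits called caveolae that stud smooth muscle cells. Many of these genes are controlled by serum response factor (SRF), which binds a DNA element called the CArG box, together with myocardin or a myocardin-related factor (MRTF). GIST resembles the interstitial cells of Cajal, the pacemaker cells that lie beside smooth muscle in the gut wall.

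The start regions of the members show where such an element lies. RefSeq promoter windows (GRCh38.p14), each of 300 bases with 250 bases before an annotated start and 50 after it, were at hand for 7 of the 10 members, with 17 starts in all. No window was at hand for TAGLN, MYH11 or MYL9, so these members were not searched. A CArG box (CC, then 6 bases of A or T, then GG, which reads as the same pattern on both strands) lay in 2 of the 17 windows, 1 of CNN2 and 1 of SMTN. When 1 of the 6 inner bases was allowed to be C or G, 4 windows of 4 members held one: ACTA2, CNN2, CALD1 and SMTN. Of 35116 RefSeq promoter windows of this length, 1.29% held a CArG box and 8.13% held one with at most 1 mismatch. The 3 windows printed here are those with the strict element or, for ACTA2, with a pair of near matches, and capitals mark each match.
ACTA2, start 2 of 2, minus strand, chr10:88952724-88953023: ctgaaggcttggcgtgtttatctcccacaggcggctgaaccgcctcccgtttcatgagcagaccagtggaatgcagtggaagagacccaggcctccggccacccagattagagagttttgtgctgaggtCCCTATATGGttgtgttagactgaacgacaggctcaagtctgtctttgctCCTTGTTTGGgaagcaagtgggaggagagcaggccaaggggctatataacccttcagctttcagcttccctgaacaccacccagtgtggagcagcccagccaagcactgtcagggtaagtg
CNN2, 1 annotated start, plus strand, chr19:1026358-1026657: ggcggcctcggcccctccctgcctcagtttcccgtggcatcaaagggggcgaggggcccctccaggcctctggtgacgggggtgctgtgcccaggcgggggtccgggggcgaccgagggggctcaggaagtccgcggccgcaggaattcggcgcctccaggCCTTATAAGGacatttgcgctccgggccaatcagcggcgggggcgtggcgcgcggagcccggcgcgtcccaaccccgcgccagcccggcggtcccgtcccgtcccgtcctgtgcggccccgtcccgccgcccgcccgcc
SMTN, start 4 of 4, plus strand, chr22:31084746-31085045: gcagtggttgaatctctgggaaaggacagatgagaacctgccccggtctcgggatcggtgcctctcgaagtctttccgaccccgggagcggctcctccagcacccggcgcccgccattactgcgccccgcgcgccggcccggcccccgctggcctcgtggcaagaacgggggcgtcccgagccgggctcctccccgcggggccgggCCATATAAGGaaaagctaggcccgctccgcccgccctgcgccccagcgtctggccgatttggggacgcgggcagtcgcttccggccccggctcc

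The matches began 121 and 71 bases before the ACTA2 start, 89 bases before the CNN2 start and 44 bases before the SMTN start. In CALD1 the match with 1 mismatch began 26 bases before the third of 4 annotated starts. The E-box letters CANNTG, to which basic helix-loop-helix factors bind, were in 7 of the 17 windows and in 68.7% of all windows. The ETS core letters GGAA, searched on both strands, were in 16 of the 17 windows and in 95.5% of all windows. A match of letters is a description and shows no binding, and which start GIST-T1 uses was not analysed here.

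**Figure D1:**
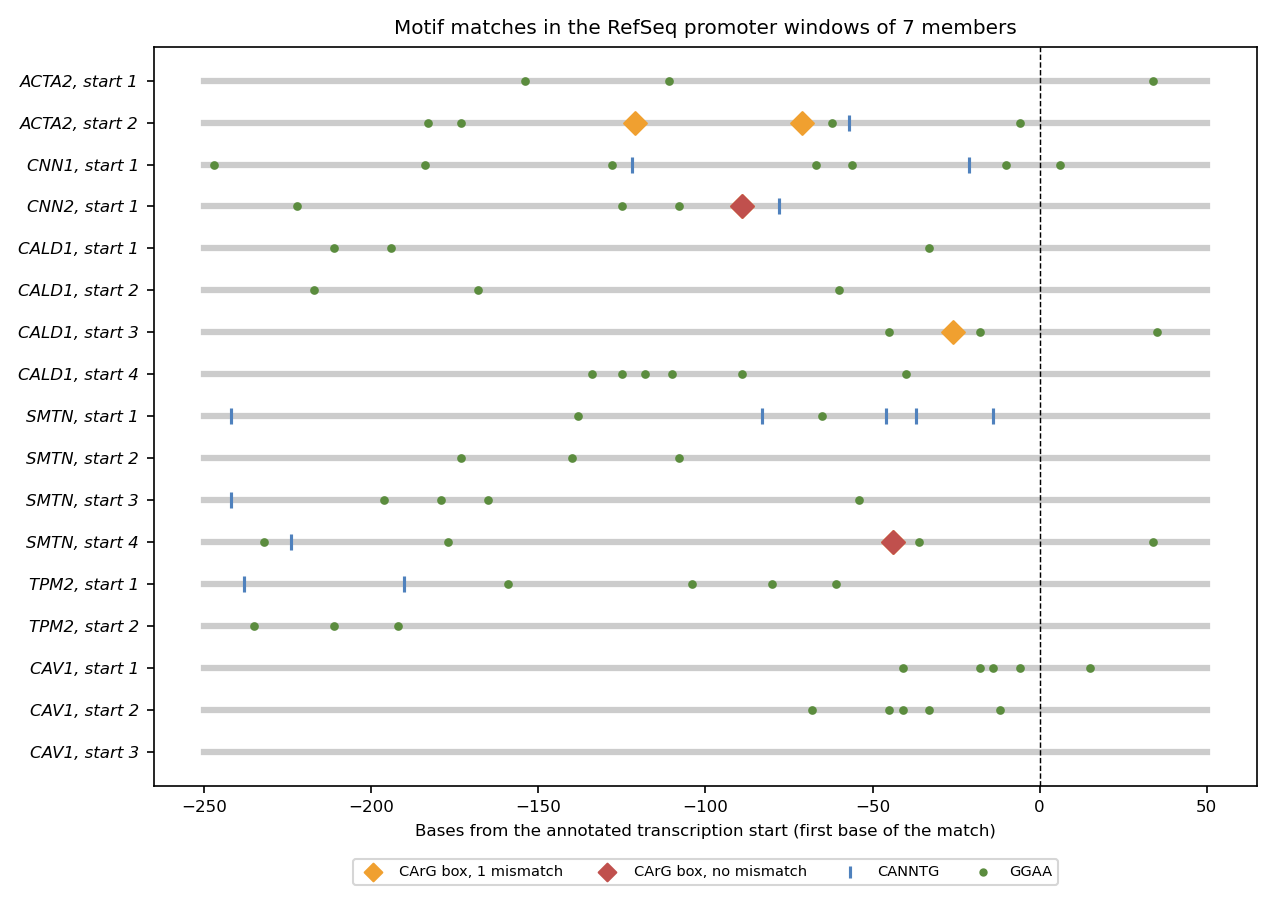
Positions of motif matches in the 17 RefSeq promoter windows of 7 members, in bases from the annotated start (dashed line). Each grey bar is 1 window; red diamonds are CArG boxes without a mismatch, orange diamonds are near matches with 1 mismatch, ticks are CANNTG and dots are GGAA on either strand. Red diamonds lie in 2 windows (CNN2 and SMTN), orange diamonds lie in windows of ACTA2 and CALD1, and each lies before its start.

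Levels are in FPKM, a fragment number per unit of transcript length and of library size, so values of different genes can be set side by side. The relative depth of the libraries, read from the steps of low values, lay between 0.637 and 1 of that of Luciferase sgRNA replicate 1; read counts, and so the absolute depth, are unknown. Both sgRNA targets were checked first. HAND1 averaged 38.3 ± 2.25 FPKM in HAND1 sgRNA libraries, 132 ± 2.26 FPKM in ETV1 sgRNA libraries and 114 ± 1.12 FPKM in Luciferase sgRNA libraries (SD, n = 3 each). ETV1 averaged 40.8 ± 0.960, 11.4 ± 0.571 and 39.7 ± 2.42 FPKM in the same order (SD, n = 3 each). Luciferase sgRNA replicate 3 stood apart: it held the highest or lowest value of the 9 in 36.3% of the tested genes, against 16.0% to 23.8% in each other library, and its summed FPKM was 538689 against at most 479939.

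Of the 10 members, 7 had a mean of at least 1 FPKM and were tested; each of them was above 1 FPKM in every library. Their levels fell into a high and a low set. CALD1, CNN2, SMTN and ACTA2 ranked 123, 590, 1054 and 1604 by mean FPKM among all 23610 genes, while CAV1, TPM2 and TAGLN ranked 8307, 8801 and 8946. The remaining 3, MYL9, MYH11 and CNN1, stayed below 0.4 FPKM in every library. Of 9 smooth muscle markers listed, 4 (ACTA2, TAGLN, SMTN and ACTG2) reached a mean of 1 FPKM, and DES, the muscle intermediate filament desmin, was listed at 0 in 8 of 9 libraries. The name of the gene set therefore describes what the proteins do in smooth muscle and not the state of these cells, in which myosin heavy chain 11, calponin 1 and desmin were near 0.

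**Figure D2:**
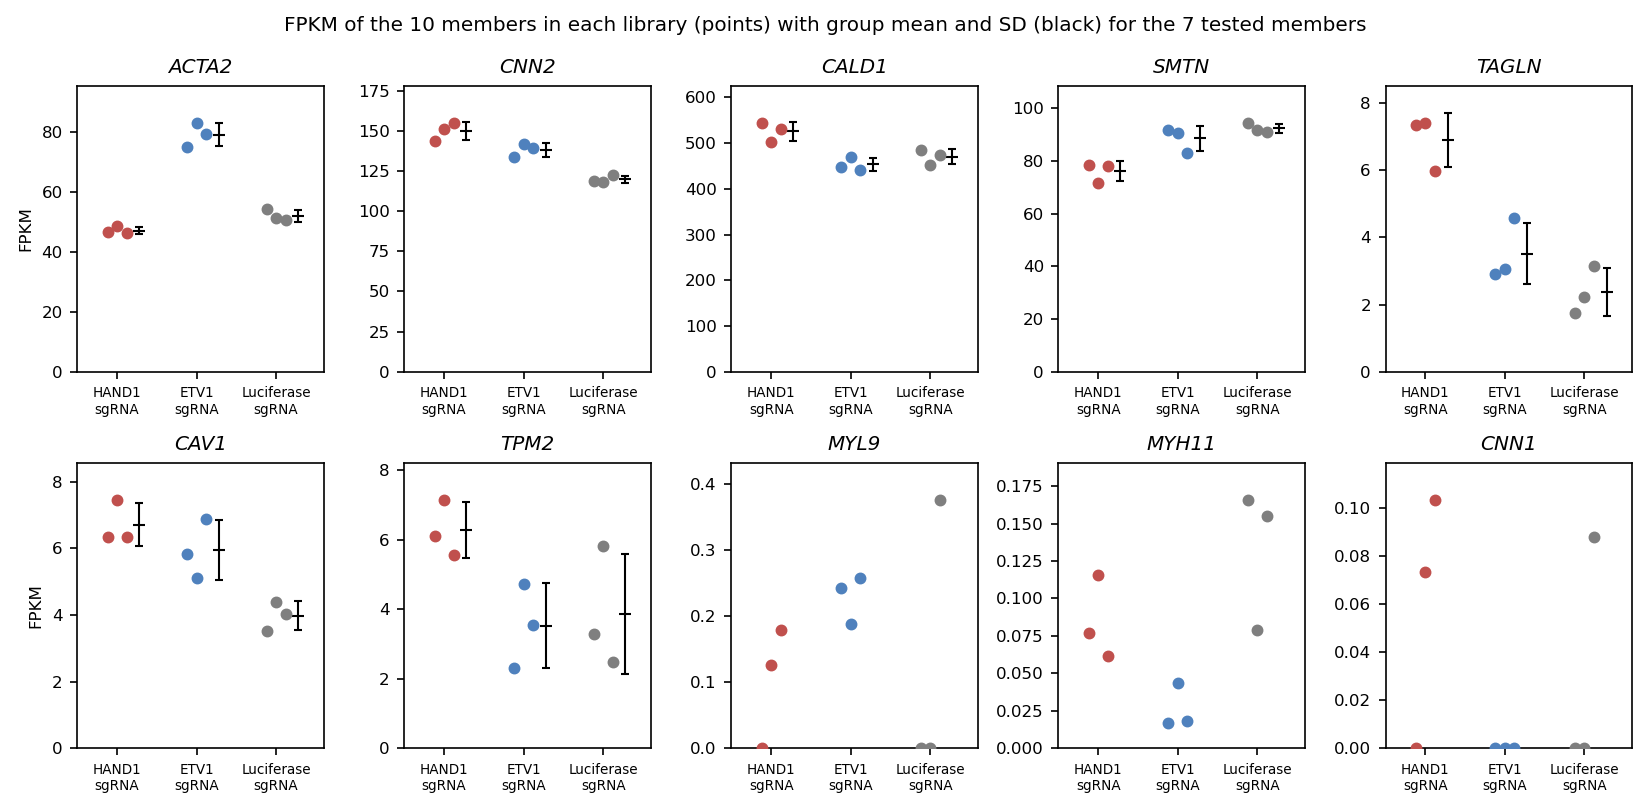
FPKM of each member in each library (points), with the group mean and SD in black for the 7 tested members. ACTA2 is highest in the 3 ETV1 sgRNA libraries, TAGLN is highest in the 3 HAND1 sgRNA libraries, CNN2 and CAV1 are lowest in the Luciferase sgRNA libraries, and MYL9, MYH11 and CNN1 lie near 0 on their own scales.

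ACTA2 encodes smooth muscle alpha-actin, the actin of the contractile thin filament. Its level was 46.6, 48.5 and 46.3 FPKM in HAND1 sgRNA libraries, 75.1, 82.9 and 79.4 FPKM in ETV1 sgRNA libraries and 54.4, 51.3 and 50.7 FPKM in Luciferase sgRNA libraries. The ETV1 sgRNA libraries lay above all others, and the HAND1 sgRNA libraries lay just below the Luciferase sgRNA libraries without overlap. How often all genes tested separate in this way was not computed. Such separation is therefore only a description, here and for the genes below. On the log2(FPKM + 1) scale ACTA2 rose by 0.59 with the ETV1 sgRNA against the Luciferase sgRNA (SE 0.054, limma adjusted p = 0.00120), 1.52-fold by mean FPKM and higher in 3 of 3 libraries. With the HAND1 sgRNA the difference was -0.14 (95% interval -0.26 to -0.02, adjusted p = 0.167) and did not pass the threshold of 0.05. Set directly against the ETV1 sgRNA, the HAND1 sgRNA gave lower ACTA2 by -0.73 (SE 0.054, limma adjusted p = 3.71e-05). In bulk RNA, fewer cells with a transcript and less of it per cell cannot be told apart, here or for the genes below.

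TAGLN encodes transgelin, also called SM22, an actin-binding protein of smooth muscle. It measured 7.35, 7.40 and 5.98 FPKM in HAND1 sgRNA libraries, 2.92, 3.08 and 4.57 FPKM in ETV1 sgRNA libraries and 1.76, 2.23 and 3.14 FPKM in Luciferase sgRNA libraries. All 3 HAND1 sgRNA libraries were above the other 6, and the ETV1 sgRNA and Luciferase sgRNA ranges overlapped. TAGLN rose by 1.24 (SE 0.174, limma adjusted p = 0.00193) with the HAND1 sgRNA against the Luciferase sgRNA, where mean FPKM was 2.91-fold higher. Against the ETV1 sgRNA it was higher by 0.82 (SE 0.174, adjusted p = 0.0261). That call was lost when any of 4 libraries was left out, with adjusted p of 0.102 without ETV1 sgRNA replicate 1 or 2, 0.104 without HAND1 sgRNA replicate 1 and 0.10 without HAND1 sgRNA replicate 2. The ETV1 sgRNA gave a difference of 0.42 from the Luciferase sgRNA (95% interval 0.04 to 0.81, adjusted p = 0.562).

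CNN2, calponin 2, is the calponin found in many cell types besides smooth muscle. Its level was 144, 151 and 155 FPKM in HAND1 sgRNA libraries, 133, 141 and 139 FPKM in ETV1 sgRNA libraries and 119, 118 and 122 FPKM in Luciferase sgRNA libraries. The groups did not overlap and stood in that order. CNN2 rose by 0.32 (SE 0.050, limma adjusted p = 0.00369) with the HAND1 sgRNA, a small change with a small spread. The ETV1 sgRNA gave 0.20 (95% interval 0.09 to 0.31, adjusted p = 0.248), and the HAND1 and ETV1 sgRNAs differed by 0.12 (95% interval 0.01 to 0.23, adjusted p = 0.284); neither passed.

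SMTN, smoothelin, is an actin-associated protein of contractile smooth muscle, and was the member that fell with the HAND1 sgRNA. It measured 78.4, 71.7 and 78.2 FPKM in HAND1 sgRNA libraries, 91.6, 90.7 and 83.1 FPKM in ETV1 sgRNA libraries and 94.2, 91.7 and 91.1 FPKM in Luciferase sgRNA libraries. The 3 HAND1 sgRNA values were the lowest of the 9. The difference from the Luciferase sgRNA was -0.28 (SE 0.057, limma adjusted p = 0.0160). Adjusted p was 0.0650 without HAND1 sgRNA replicate 2, 0.0526 without Luciferase sgRNA replicate 1, 0.0533 without Luciferase sgRNA replicate 2 and 0.103 after quantile normalization, each above the threshold of 0.05. The ETV1 sgRNA gave -0.06 (95% interval -0.19 to 0.06, adjusted p = 0.844).

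CALD1 encodes caldesmon, which binds actin and tropomyosin and restrains the myosin motor in smooth muscle; other cells make a shorter form, and the gene-level table does not separate them. It was the most abundant member, at 543, 503 and 530.1 FPKM in HAND1 sgRNA libraries, 448, 470.4 and 442 FPKM in ETV1 sgRNA libraries and 486, 452 and 474 FPKM in Luciferase sgRNA libraries. The HAND1 sgRNA values were above all others, yet the difference of 0.16 from the Luciferase sgRNA (95% interval 0.03 to 0.29) had a limma adjusted p of 0.163. Between the HAND1 and ETV1 sgRNAs it was 0.21 (95% interval 0.08 to 0.35, adjusted p = 0.0908). Neither passed.

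TPM2, beta-tropomyosin, lies along the actin filament. Its level was 6.12, 7.15 and 5.57 FPKM in HAND1 sgRNA libraries, 2.31, 4.74 and 3.55 FPKM in ETV1 sgRNA libraries and 3.28, 5.81 and 2.49 FPKM in Luciferase sgRNA libraries. Luciferase sgRNA replicate 2 reached into the HAND1 sgRNA range, and no comparison passed. The HAND1 sgRNA differed from the Luciferase sgRNA by 0.63 (95% interval 0.08 to 1.19, limma adjusted p = 0.172). Without Luciferase sgRNA replicate 2 the difference was 0.91 (adjusted p = 0.0457). The ETV1 sgRNA gave -0.08 (95% interval -0.63 to 0.47, adjusted p = 0.970).

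CAV1 encodes caveolin 1, the coat protein of caveolae. It measured 6.33, 7.46 and 6.35 FPKM in HAND1 sgRNA libraries, 5.83, 5.10 and 6.89 FPKM in ETV1 sgRNA libraries and 3.51, 4.38 and 4.03 FPKM in Luciferase sgRNA libraries. Both sgRNA groups lay above the Luciferase sgRNA libraries and overlapped with each other. CAV1 rose by 0.63 with the HAND1 sgRNA (SE 0.114, limma adjusted p = 0.00784), 1.69-fold by mean FPKM. With the ETV1 sgRNA the difference was 0.48 (95% interval 0.22 to 0.73, adjusted p = 0.232), which did not pass. The direct difference between the HAND1 and ETV1 sgRNAs was 0.16 (95% interval -0.10 to 0.41, adjusted p = 0.594), so a different response of CAV1 to the pair was not shown.

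The other 3 members, MYH11, MYL9 and CNN1, were close to 0. MYH11, the smooth muscle myosin heavy chain, was at 0.0767, 0.116 and 0.0616 FPKM in HAND1 sgRNA libraries, 0.0168, 0.0434 and 0.0179 FPKM in ETV1 sgRNA libraries and 0.166, 0.0791 and 0.155 FPKM in Luciferase sgRNA libraries. MYL9, a myosin regulatory light chain, was at 0, 0.127 and 0.179 FPKM in HAND1 sgRNA libraries, 0.244, 0.188 and 0.258 FPKM in ETV1 sgRNA libraries and 0, 0 and 0.377 FPKM in Luciferase sgRNA libraries. CNN1, calponin 1 of differentiated smooth muscle, was listed at 0 in all ETV1 sgRNA libraries, at 0, 0.0733 and 0.104 FPKM with the HAND1 sgRNA, and at 0, 0 and 0.0878 FPKM with the Luciferase sgRNA. These values were not tested, and no fold change is given. The light chains shared with nonmuscle myosin were abundant: MYL6, an essential light chain, averaged 671 ± 51.3 FPKM in HAND1 sgRNA libraries, 650.1 ± 54.7 FPKM in ETV1 sgRNA libraries and 714 ± 243 FPKM in Luciferase sgRNA libraries, and MYL12B, a regulatory light chain, averaged 209.9 ± 9.49, 219 ± 2.15 and 206 ± 19.9 FPKM in the same order (SD, n = 3 each).

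The 3 comparisons come from 1 fit, and the comparisons of the HAND1 and ETV1 sgRNAs with the control share the Luciferase sgRNA libraries. With the HAND1 sgRNA against the Luciferase sgRNA, 3 tested members rose (TAGLN, CNN2 and CAV1) and 1 fell (SMTN), 4 of 7, against 6.60% of the 11348 genes tested (749 genes; 3.67% higher and 2.93% lower). With the ETV1 sgRNA, 1 of 7 rose (ACTA2) and 0 fell, against 0.203% of genes tested (23 genes; 0.141% higher and 0.0617% lower), while 930 genes had an unadjusted p under 0.05. Between the HAND1 and ETV1 sgRNAs, 1 of 7 was higher (TAGLN) and 1 lower (ACTA2), against 4.05% of genes tested (460 genes; 2.01% higher and 2.04% lower). Leaving out 1 library in turn gave 433 to 729, 11 to 28 and 271 to 592 genes called in these comparisons. The median log2 difference of the 7 was 0.32, 0.20 and 0.16 in the same order, against -0.01, -0.01 and -0.00335 over all genes tested. The members were proposed with results of these libraries in view, so these counts describe the genes and are no independent support. Without Luciferase sgRNA replicate 3, TAGLN (1.40), CNN2 (0.34), CAV1 (0.64) and SMTN (-0.29) again passed for the HAND1 sgRNA, and ACTA2 (0.57) for the ETV1 sgRNA.

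**Figure D3:**
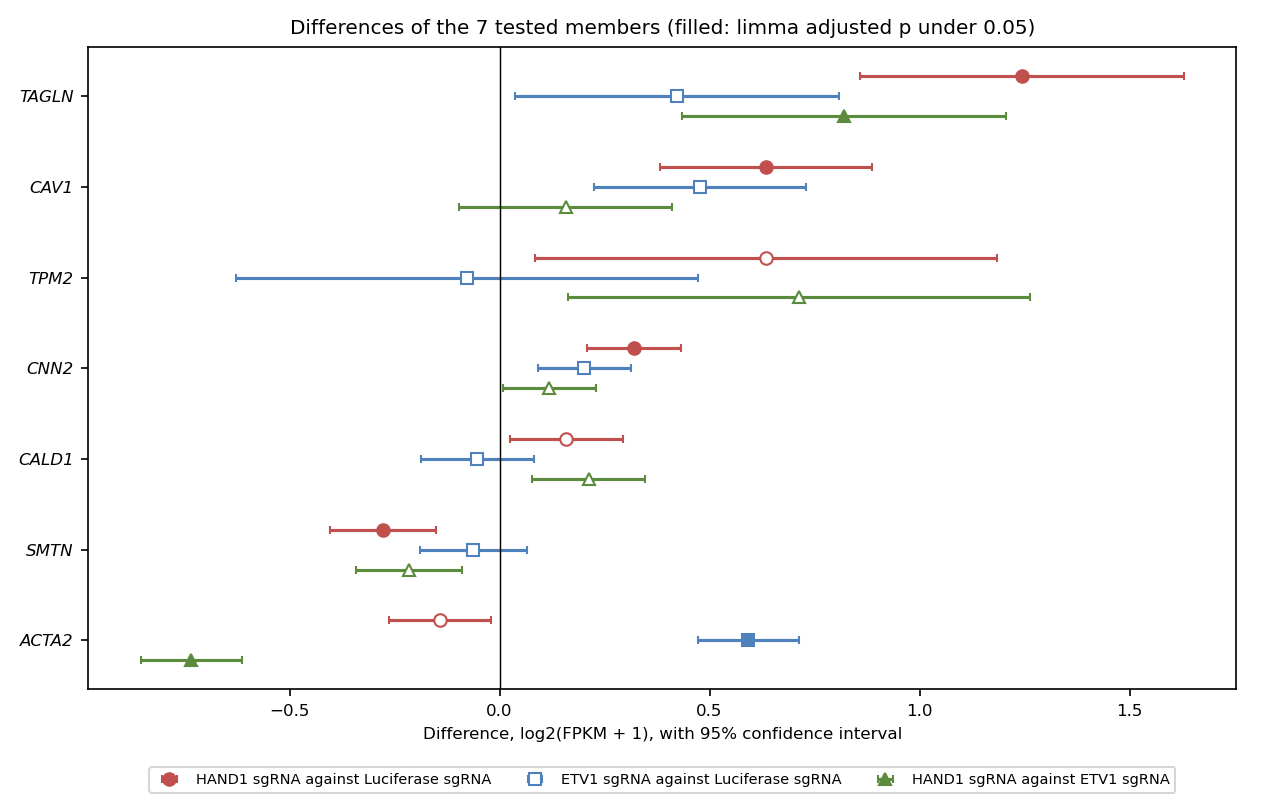
Difference on the log2(FPKM + 1) scale for each tested member in each comparison, as the limma estimate with its 95% interval. Filled symbols passed the adjusted p threshold of 0.05: TAGLN, CNN2, CAV1 and SMTN for HAND1 sgRNA against Luciferase sgRNA, ACTA2 for ETV1 sgRNA against Luciferase sgRNA, and TAGLN and ACTA2 between the HAND1 and ETV1 sgRNAs.

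ACTA2, TAGLN, CNN2, TPM2 and CAV1 were then set beside their paralogs, which encode the same kind of protein. Some paralogs, such as ACTG2 and CNN1, are smooth muscle genes too. ACTB and ACTG1, the cytoplasmic actins, held nearly all actin transcripts: ACTB averaged 4431, 4363 and 4089 FPKM in HAND1, ETV1 and Luciferase sgRNA libraries, and ACTG1 averaged 1832, 1917 and 1712 FPKM. ACTA2 made up 0.747 ± 0.0306% of the summed actin FPKM in HAND1 sgRNA libraries, 1.24 ± 0.0317% in ETV1 sgRNA libraries and 0.890 ± 0.0287% in Luciferase sgRNA libraries (SD, n = 3 each). ACTG2, gamma-actin of gut smooth muscle, averaged 1.59, 0.843 and 0.611 FPKM in the same order and did not pass in any comparison, and ACTC1, the cardiac actin, was at 0 throughout.

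TAGLN was a minor transgelin beside TAGLN2, which averaged 425, 415 and 408 FPKM in HAND1, ETV1 and Luciferase sgRNA libraries. The TAGLN share of the family was 1.60 ± 0.152%, 0.837 ± 0.189% and 0.574 ± 0.126% in the same order (SD, n = 3 each). CNN3, the other abundant calponin, averaged 165, 161 and 159 FPKM in that order, and the CNN2 share of calponin FPKM was 47.6 ± 0.650% in HAND1 sgRNA libraries, 46.2 ± 1.11% in ETV1 sgRNA libraries and 42.9 ± 0.230% in Luciferase sgRNA libraries (SD, n = 3 each). TPM2 was the scarcest tropomyosin, at 0.769 ± 0.0849%, 0.430 ± 0.140% and 0.513 ± 0.241% of its family, behind TPM4, which averaged 630.1, 629 and 574 FPKM. CAV1 was the main caveolin, at 80.3 ± 2.98%, 77.1 ± 3.87% and 73.0 ± 2.80% of the family, with CAV2 at 1.65, 1.59 and 1.43 FPKM. No paralog of ACTA2, TAGLN, CNN2, TPM2 or CAV1 in these families passed the limma test in any of the 3 comparisons. Over all genes tested 6.60% were called for HAND1 against Luciferase sgRNA and 0.203% for ETV1 against Luciferase sgRNA. Between the HAND1 and ETV1 sgRNAs the share was 4.05%. With so few paralogs tested, the lack of calls is not read as a result about them.

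The shares of the 5 families gave 15 comparisons between groups. In 11 of them the 3 libraries of one group lay entirely on one side of the other 3, and the exact two-sided permutation test gave p = 0.1, the smallest that 3 libraries against 3 allow, or 0.136 after Benjamini-Hochberg adjustment. These were all comparisons for ACTA2, TAGLN and CNN2, HAND1 against ETV1 sgRNA for TPM2, and HAND1 against Luciferase sgRNA for CAV1. The other 4 had an exact p of 0.3 or 0.6. With 3 libraries against 3 this exact test cannot reach 0.05. How often other genes or families separate in this way was not computed, so the count of 11 has nothing to be set against. The shares are made from the same FPKM values as the levels above and are no independent support.

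**Figure D4:**
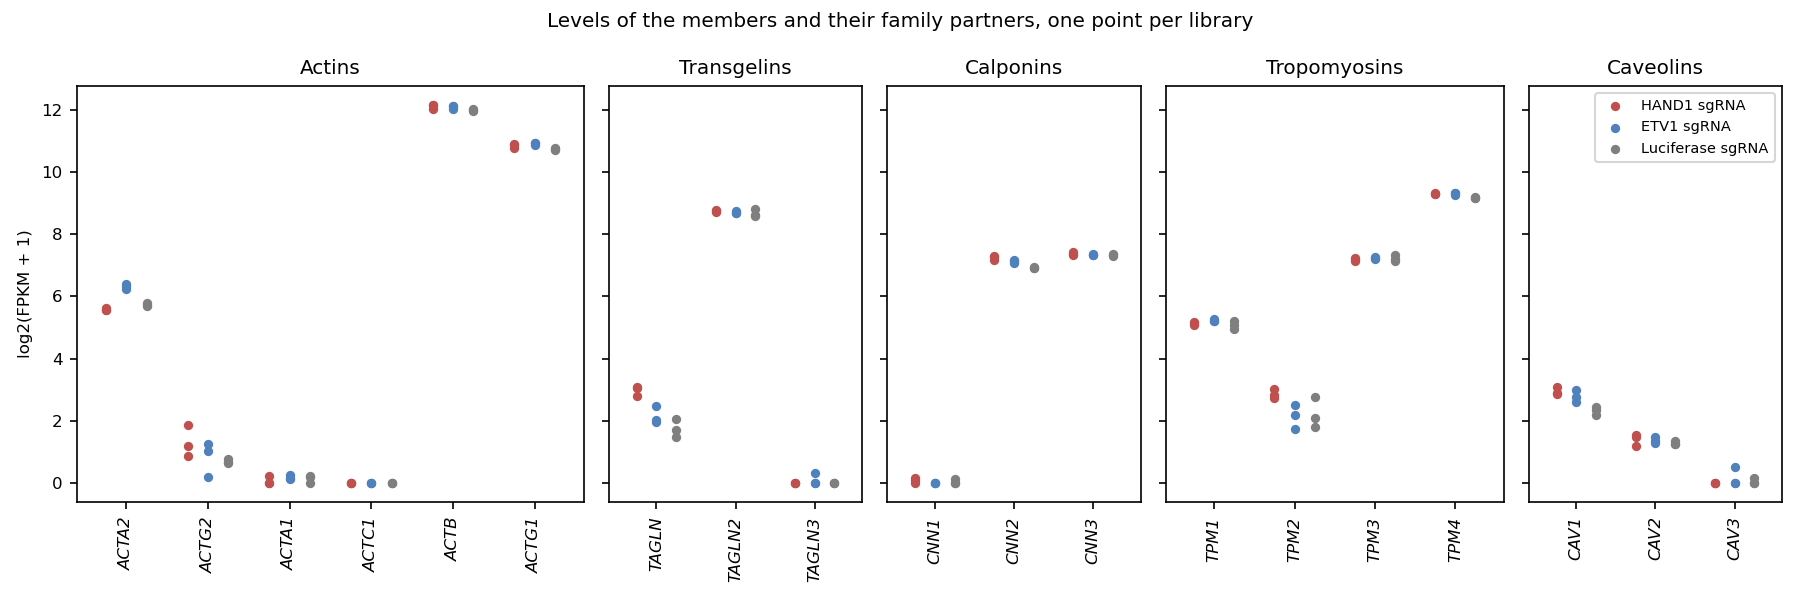
Level on the log2(FPKM + 1) scale of each member and its paralogs, with 1 point per library and the groups side by side as HAND1, ETV1 and Luciferase sgRNA. ACTA2, TAGLN and TPM2 lie well below their most abundant paralogs, CNN2 lies just below CNN3, and CAV1 is the highest caveolin.

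Other genes of the same machinery were taken from lists chosen by function, also with earlier results known. Of 26 further smooth muscle genes, 19 were tested. With the HAND1 sgRNA against the Luciferase sgRNA 2 rose and 0 fell, against 3.67% higher and 2.93% lower over all genes tested (6.60% called). So small a count is not read as a result about the list. The median was 0.09, and none passed for the ETV1 sgRNA (median 0.05), against 0.203% called over all genes tested. HSPB6, a small heat shock protein of muscle, measured 198, 209 and 222 FPKM in HAND1 sgRNA libraries, 149.9, 167 and 164 FPKM in ETV1 sgRNA libraries and 152, 148 and 134 FPKM in Luciferase sgRNA libraries. All HAND1 sgRNA values were the highest, and it rose by 0.53 (SE 0.070, limma adjusted p = 0.00128) and was 0.38 higher than with the ETV1 sgRNA (adjusted p = 0.0115), a call lost without ETV1 sgRNA replicate 1 (0.0547) or HAND1 sgRNA replicate 3 (0.0604). AOC3, an amine oxidase on the smooth muscle surface, measured 2.57, 2.61 and 2.28 FPKM in HAND1 sgRNA libraries, 1.51, 1.38 and 1.24 FPKM in ETV1 sgRNA libraries and 1.14, 1.11 and 1.31 FPKM in Luciferase sgRNA libraries. It rose by 0.67 (SE 0.105, limma adjusted p = 0.00390) with the HAND1 sgRNA and was 0.55 higher than with the ETV1 sgRNA (adjusted p = 0.0150), a call lost without ETV1 sgRNA replicate 2 (0.0503) or 3 (0.0601) or HAND1 sgRNA replicate 1 (0.0666) or 2 (0.0689).

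Of 12 genes for SRF, myocardin and their partners, 9 were tested and 0 passed in any comparison (medians -0.02, -0.03 and -0.01). FHL2, a LIM protein that can act with SRF and the most abundant of the list, averaged 366 ± 8.87 FPKM in HAND1 sgRNA libraries, 380.3 ± 14.4 FPKM in ETV1 sgRNA libraries and 398 ± 12.7 FPKM in Luciferase sgRNA libraries (SD, n = 3 each). SRF averaged 15.3 FPKM in HAND1 sgRNA libraries, 15.0 FPKM in ETV1 sgRNA libraries and 15.5 FPKM in Luciferase sgRNA libraries, and MYOCD, the smooth muscle coactivator myocardin, had a mean of 0.0126 FPKM over all libraries. Of 9 myosin heavy and light chain genes, 7 were tested and 0 passed in any comparison (medians 0.03, -0.03 and 0.05). Over all genes tested 6.60%, 0.203% and 4.05% were called in the same order of comparisons. With so few genes tested, a count of 0 is not read as a result about either list.

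All 18 cross-linker and focal adhesion genes were tested, and 2 rose with the HAND1 sgRNA, against 0 that fell (median 0.02). Over all genes tested 3.67% were higher and 2.93% lower (6.60% called), and this count is again too small to read as a result about the list. ZYX, the focal adhesion protein zyxin, measured 206, 215 and 203 FPKM in HAND1 sgRNA libraries, 188, 188 and 200.2 FPKM in ETV1 sgRNA libraries and 154, 155 and 157 FPKM in Luciferase sgRNA libraries. It rose by 0.42 with the HAND1 sgRNA (SE 0.050, limma adjusted p = 7.41e-04), and its ETV1 sgRNA values lay between the others. LIMA1, an actin-bundling LIM protein, averaged 79.0 FPKM in HAND1 sgRNA libraries and 66.3 FPKM in Luciferase sgRNA libraries, a rise of 0.25 (adjusted p = 0.0288) kept in 11 of 19 alternatives. Among 7 caveolin and cavin genes, 5 were tested and CAV1 was the 1 called. None of the last 2 lists passed for the ETV1 sgRNA or between the HAND1 and ETV1 sgRNAs, against 0.203% and 4.05% called over all genes tested.

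**Figure D5:**
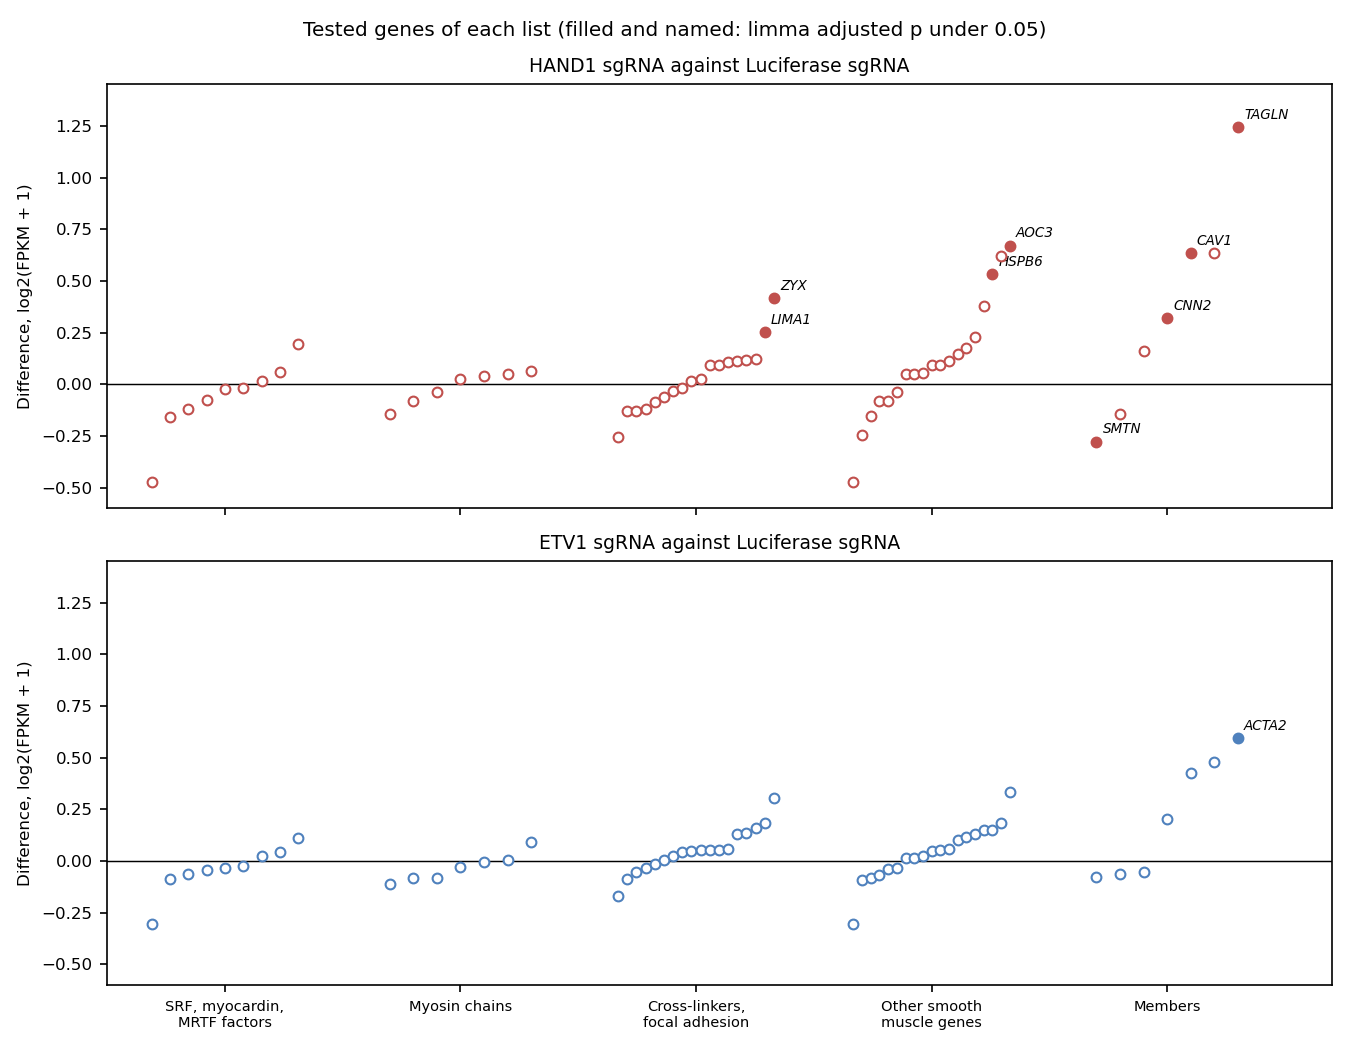
Difference on the log2(FPKM + 1) scale for each tested gene of 4 lists and for the 7 tested members, in order of size within each list; the upper panel is HAND1 sgRNA and the lower panel ETV1 sgRNA, each against Luciferase sgRNA. Filled and named points passed the limma adjusted p threshold of 0.05: 4 list genes and 4 members in the upper panel, and ACTA2 in the lower panel.

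Markers of other cells were read beside these results. All 12 skeletal and cardiac muscle markers were below the test's minimum; their summed FPKM was 0.359 to 0.480 in HAND1 sgRNA libraries, 0.160 to 0.628 in ETV1 sgRNA libraries and 0 to 0.564 in Luciferase sgRNA libraries, with ACTC1, MYH1, MYH2, MYH6 and MYH7 at 0 throughout. Of 5 pericyte markers 4 were tested, and their summed level was 25.6 to 29.7, 29.1 to 29.8 and 26.7 to 27.8 FPKM in the same order. One of them, RGS5, a regulator of G protein signalling, fell with the HAND1 sgRNA by 0.46 (limma adjusted p = 0.00394), at 8.08 ± 0.267 FPKM against 11.5 ± 0.815 FPKM with the Luciferase sgRNA (SD, n = 3 each). The other 3 tested pericyte markers did not pass, at 0.40 for MCAM (adjusted p = 0.0610), 0.24 for PDGFRB (adjusted p = 0.305) and -0.17 for CSPG4 (adjusted p = 0.458), and the median of the 4 was 0.03. Of 10 endothelial, epithelial and blood markers 3 were tested (KRT18, KRT8 and CD68), with sums of 211 to 226, 227 to 252 and 232 to 269 FPKM. CD68 rose by 0.50 with the HAND1 sgRNA (limma adjusted p = 0.0466), a call kept in 10 of 19 alternatives. KRT18 averaged 206 FPKM with the HAND1 sgRNA against 236 FPKM with the Luciferase sgRNA, and KRT8 averaged 3.36 against 3.30 FPKM. Neither keratin gene passed. The median difference of the 3 was -0.00474, and 6.60% of all genes tested were called in this comparison. The part of these markers in the members' results was not tested. All 5 GIST markers, shared with interstitial cells of Cajal, were tested. KIT, the receptor that drives GIST, averaged 159.9 ± 4.51 FPKM in HAND1 sgRNA libraries, 207 ± 9.22 FPKM in ETV1 sgRNA libraries and 209 ± 11.3 FPKM in Luciferase sgRNA libraries (SD, n = 3 each). With the HAND1 sgRNA against the Luciferase sgRNA, KIT and PRKCQ fell, 2 of 5, against 2.93% lower over all genes tested. This count is too small to read as a result about the list. PRKCQ averaged 3.67 ± 0.149 FPKM in HAND1 sgRNA libraries, 7.12 ± 0.576 FPKM in ETV1 sgRNA libraries and 6.84 ± 0.232 FPKM in Luciferase sgRNA libraries (SD, n = 3 each). The KIT call was lost after quantile normalization (limma adjusted p = 0.129). ANO1, CD34 and ETV1 were not called, at means of 170, 1762 and 40.8 FPKM against 165, 1680 and 39.7 FPKM with the Luciferase sgRNA. The median difference of the 5 was 0.04.

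The libraries were not stranded, so reads within exon bases shared by genes on opposite strands cannot be told apart by strand. By GENCODE v29, an annotation of GRCh38 and not of the build the authors used, 5 of the 10 members share exon bases with another gene: ACTA2, TAGLN, CNN2, MYH11 and SMTN. ACTA2 overlaps FAS, a death receptor gene on the opposite strand, which averaged 36.9 ± 4.51 FPKM in ETV1 sgRNA libraries and 33.1 ± 2.89 FPKM in Luciferase sgRNA libraries (SD, n = 3 each), a difference of 0.15 (limma adjusted p = 0.755). TAGLN overlaps PCSK7, a protease gene on the opposite strand, which averaged 12.5 ± 0.126 FPKM in HAND1 sgRNA libraries and 11.2 ± 1.18 FPKM in Luciferase sgRNA libraries (SD, n = 3 each), a difference of 0.15 (adjusted p = 0.339). Neither partner passed; the part of reads from the overlaps in the members' values was not tested.

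The genes most like ACTA2 and TAGLN over the 9 libraries were looked up as a description, by Pearson's r of log2(FPKM + 1); the 9 points are 3 libraries of each of 3 groups, so r mostly follows the group means. For ACTA2 these were ATP1B1 (r = 0.98), FOS (r = 0.97), PLXNA2, FOXP4 and APOBEC3B (r = 0.96 each). FOS, a subunit of the AP-1 factor, averaged 1.73 FPKM in HAND1 sgRNA libraries, 13.4 FPKM in ETV1 sgRNA libraries and 2.18 FPKM in Luciferase sgRNA libraries. For TAGLN they were LDB2, ALDH1A3 and ARL6IP1 (r = 0.97 each), and BMP4 and GPR153 (r = 0.96 each). BMP4, a secreted ligand of the TGF-beta superfamily, averaged 190.3, 138 and 112 FPKM in HAND1, ETV1 and Luciferase sgRNA libraries.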

How the data were processed

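The authors deposited FPKM in rows named by gene symbol, with 1 value per row in each library. The count of duplicate symbols was 2, and such rows were kept as separate genes. Per the submitters' processing notes STAR, Cufflinks and hg19 were used; no versions are named. The kit was not stranded, per the labels' protocols. The annotation is not given in the sources used here, nor is the scaling between libraries. Values below 1e-06 were read as 0. The 11348 genes whose mean over the 9 libraries was 1 FPKM or more were fitted as log2(FPKM + 1) with limma 3.58.1 in R 4.3.3, with group as the term, all libraries and an intensity trend. Tests were two-sided and Benjamini-Hochberg adjusted over all genes tested; an adjusted p under 0.05 was called. This scale understates changes of low genes. Members and lists were chosen with earlier results of these data known. A further list is not reported here. Named genes are the members, the sgRNA targets, paralogs and the 5 genes most like ACTA2 and TAGLN. Up to 4 called genes per list are also named, or up to 2 of the most abundant where none was called. The overlap partners FAS and PCSK7, MYOCD, DES, SRF, MCAM, PDGFRB and CSPG4 were added after values were seen. The markers KRT18, KRT8, ANO1, CD34, MYH1, MYH2, MYH6 and MYH7 are also named outside this rule. Alternatives were other pseudocounts, filters, scalings, weights, groups, a replicate block and leaving out each library.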

Additional observations from a re-analysis of the deposited data

How the results depend on the processing

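ACTA2 passed in 19 of 19 alternatives for the ETV1 sgRNA against the Luciferase sgRNA (limma adjusted p 2.91e-04 to 0.0191), as did CNN2 and CAV1 for the HAND1 sgRNA; TAGLN passed for the HAND1 sgRNA in all 18 in which it was tested (2.08e-04 to 0.0130). Leaving out each library in turn gave 3 to 4 members called for HAND1 against Luciferase sgRNA, 1 for ETV1 against Luciferase sgRNA and 1 to 4 for HAND1 against ETV1 sgRNA. That last count was 1 without a filter (TAGLN adjusted p = 0.0694) and 1 at a minimum of 5 FPKM, which removed TAGLN, and 4 with library weights, which added CALD1 (0.0444) and SMTN (0.0383); without Luciferase sgRNA replicate 3 the same pair passed (0.0386 and 0.0498). CALD1 passed for HAND1 against Luciferase sgRNA with weights (0.0356). The cause of these shifts was not tested.

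Genes called came to 1312 with weights and 433 to 729 over the left-out libraries for HAND1 against Luciferase sgRNA, where 433 was without HAND1 sgRNA replicate 3, and leaving out HAND1 sgRNA replicate 1 or 2 or Luciferase sgRNA replicate 2 gave 482 to 489. For ETV1 against Luciferase sgRNA they came to 45 with weights, 14 with the 2 groups alone and 11 to 28 over the left-out libraries, where 11 was without ETV1 sgRNA replicate 1, and leaving out ETV1 sgRNA replicate 3 or replicate 1 or 2 of either other group gave 13 to 15. For HAND1 against ETV1 sgRNA the range was 271 to 592, with 271 to 295 when ETV1 sgRNA replicate 1 or 2 or any HAND1 sgRNA library was left out. Without Luciferase sgRNA replicate 3 the count was 28 for ETV1 against Luciferase sgRNA, against 23 with all libraries. It was 592 for HAND1 against ETV1 sgRNA, against 460 with all libraries. Each left-out library also takes away degrees of freedom, and the part of this in the counts was not tested. Of single genes, 3 differences turned sign: ATP1B1 for HAND1 against Luciferase sgRNA (0.0507 after quantile normalization), and TPM2 for ETV1 against Luciferase sgRNA (0.13 leaving out replicate 1 of the ETV1 sgRNA and 0.19 leaving out replicate 2 of the Luciferase sgRNA, over a range of -0.29 to 0.19); neither gene was called there. The TPM2 share for ETV1 against Luciferase sgRNA ranged over the left-out libraries between -0.177 and 0.0527 percentage points.

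Replicate numbers are shared between groups. Correlations of deviations were -0.146 to 0.138 for same-numbered libraries and -0.126 to 0.196 for differently numbered ones. Whether same-numbered libraries were handled together is not in the labels, and these correlations cannot show it. With a replicate block, 4, 1 and 2 members were called, the same ones, among 632, 16 and 364 genes. FPKM carry no counts, so depth limits cannot be set, and the values of MYL9, MYH11 and CNN1 are too low to compare.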
